A study of Mus musculus with 4 samples.

Results

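The genes described here are 37 genes of the unfolded protein response and the amino acid stress response, measured in mouse mammary basal cells grown as colonies with or without Wnt3A. The members were chosen by name from the known pathways, with earlier results of these data known, and a gene's value is the mean of the probe sets that the platform annotation gives that single gene symbol. All 37 had such a probe set, out of 18193 genes on the array. Cells meet misfolded protein in the endoplasmic reticulum (ER) through the sensors PERK, IRE1 and ATF6. IRE1 and ATF6 act through the transcription factors XBP1 and ATF6 on genes for ER chaperones and for degradation of misfolded protein. PERK, like the amino acid sensor GCN2, phosphorylates the translation factor eIF2, which favours translation of ATF4, a transcription factor for genes of amino acid synthesis, amino acid uptake and transfer RNA charging. Secretory epithelia such as the mammary gland depend on the ER arm when they make secreted protein, and growing cells use the ATF4 arm to keep up amino acid supply.

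The cells were sorted from mammary glands of virgin female CD1 mice aged 8 to 12 weeks by the gate Lin-, CD24+, CD29hi, which takes basal cells and is used to enrich stem cells of the gland. All colonies grew in Matrigel, a basement membrane gel, in medium with 50 ng/ml EGF, and received either purified Wnt3A protein at 200 ng/ml, a ligand of the canonical Wnt pathway, or its vehicle (1% CHAPS in PBS, the control group). RNA came from colonies of passage 2 after 6 to 7 days, so both groups had been sorted, passaged and cultured alike. There were 2 arrays in each group, numbered 1 and 2, and array values are given below in that order. The labels do not say if these were different animals or cultures. The p-values therefore rest on a spread between arrays that may be technical only.

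Deposited values are log2 values with each probe set's median over the 4 arrays subtracted, so they give differences between arrays and no level. With so few arrays the precision is limited: by limma, 0 of 18193 genes (0%) had an adjusted p under 0.05, and the smallest was 0.27, while 1340 genes (7.37%) had an unadjusted p under 0.05. Axin2, a feedback target of canonical Wnt signalling, was higher in both Wnt3A arrays (difference 0.82 ± 0.20 log2 units, where ± is throughout the SE from limma, with 2 arrays per group), though its probe sets differed by -0.12 and 1.77. The precision with which each value was stored gives a rough level, and by it all 10 basal and all 8 luminal marker genes had a probe set in the top level band, log2 8 to 16, as did 10294 of the 18193 genes, against 3 of 6 fibroblast, 1 of 4 endothelial and 1 of 5 blood genes. Because whole colonies were measured, fewer cells of a type and less RNA per cell cannot be told apart.

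Most of the 37 genes were slightly higher with Wnt3A. The mean was higher for 28 and lower for 9, and the median difference was 0.26 log2 units, against 0.00 over all genes, of which 50.1% had a higher mean. None passed the adjusted threshold. The largest absolute difference was 0.92, and 0 members reached 1 (1.7% of all genes did), though after quantile normalization Phgdh was at 1.02, Vldlr at -0.94 and Chac1 at 0.88. Both Wnt3A arrays lay above both controls (called separated higher) for 14 members, or 37.8%, where 17% of all genes did, and below both for 1, where 17.5% did. Because the members and the further lists were chosen with results known, these shares are descriptions. An unadjusted p under 0.05 was found for 6 members, all higher with Wnt3A: Chac1, Mthfd2, Slc7a1, Creld2, Manf and Hyou1. Over all genes 3.55% were higher and 3.82% lower at this p. With control 1 left out the median difference of the members was 0.26, and with control 2 left out 0.18. It was 0.29 without Wnt3A 2 and 0.15 without Wnt3A 1. Such fits leave 1 array in a group, so no count of members by p is given for them. The lowest array was control 2 for 20 members (30.6% of all genes) and control 1 for 11 (19.7%). The highest was Wnt3A 1 for 16 (31.5%) and Wnt3A 2 for 13 (18.4%).

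**Figure D1:**
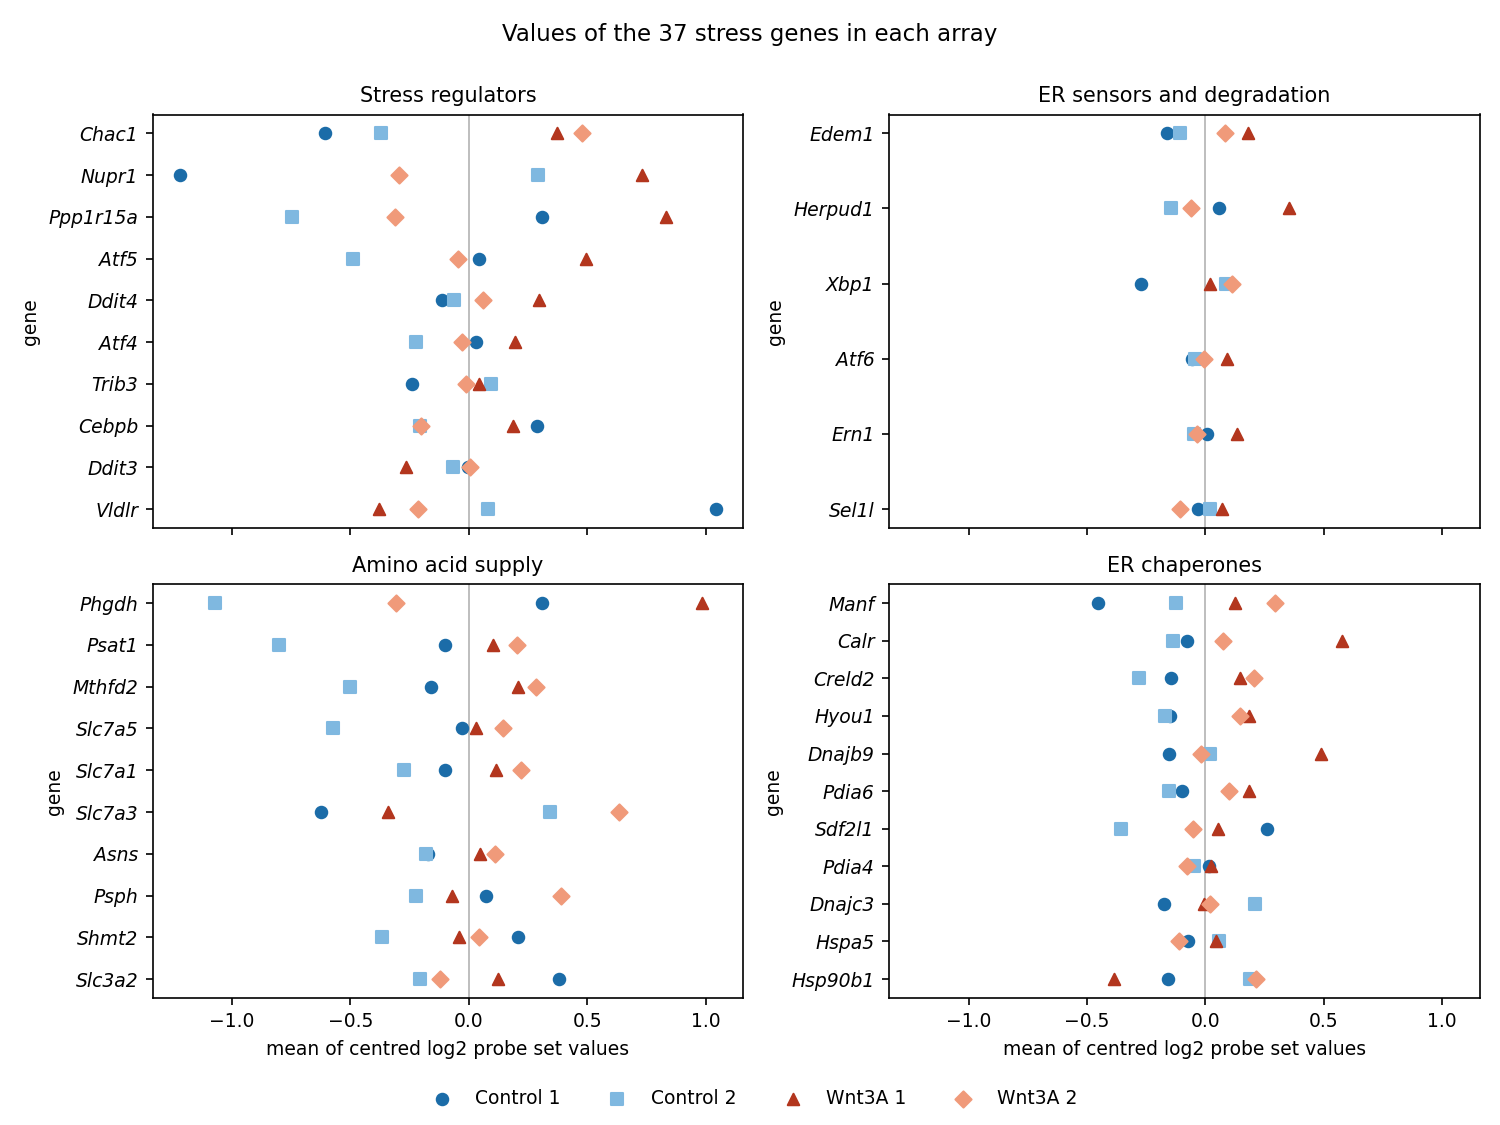
Each row is a gene and each symbol 1 array, on a log2 scale as the mean of the gene's probe sets, each centred on its median over the 4 arrays, in 4 panels by role. Both Wnt3A arrays lie to the right of both controls for 14 genes, such as Chac1 and Mthfd2, while Nupr1 and Ppp1r15a spread widely within each group.

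Markers of squamous differentiation, read from a list of 8 genes, differed with the groups too. They were higher with Wnt3A for 8 of 8 genes, and 6 were separated higher, where 17% of all genes were (17.5% were separated lower). Their list medians were -0.52 and -0.66 in the controls and 0.12 and 1.55 in Wnt3A 1 and 2. In the same 2 Wnt3A arrays the amino acid medians were 0.08 and 0.17 and the chaperone medians 0.13 and 0.08. Wnt3A 2 was the highest array for 8 of 8 squamous genes, 7 of 10 amino acid genes and 3 of 11 chaperones (18.4% of all genes). The squamous median difference was 1.35, and 0.55 without Wnt3A 2. Basal markers had a median difference of 0.28 (3 of 10 separated higher, 2 lower), which was 0.05 without control 1 and 0.04 without Wnt3A 2. Luminal markers had -0.02 (1 of 8 higher, 1 lower), between -0.17 and 0.20 with any 1 array left out, and proliferation markers 0.10 (0 of 5 separated), between -0.17 and 0.23. Fibroblast markers had a median of 0.09 (0 of 6 separated higher, 1 lower), endothelial markers -0.09 (1 of 4 higher, 0 lower) and blood markers 0.04 (1 of 5 higher, 1 lower). The part of these cell types in the values of the stress genes was not tested.

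The stress regulators hold transcription factors and feedback genes of the ATF4 arm. Of the 10, 7 had a higher mean, 2 were separated higher (Chac1 and Ddit4) and 1 was separated lower (Vldlr), with a median difference of 0.22 log2 units. These shares lie near or below the 17% and 17.5% of all genes. The median was 0.06 without Wnt3A 1 and 0.12 without control 2. Chac1, a glutathione-degrading enzyme induced by ATF4, was at -0.61 and -0.37 in the controls against 0.37 and 0.48 with Wnt3A. The groups did not overlap, and each group's arrays lay closer to each other than to the other group. The difference was 0.92 ± 0.14 log2 units, a 1.89-fold higher value (limma adjusted p = 0.42), and it lay between 0.80 and 1.03 with any 1 array left out. Chac1 had 1 probe set, so agreement between probe sets could not be judged.

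ATF4 itself is controlled mainly through translation, which an RNA array does not read. Atf4 was at 0.03 and -0.22 in the controls against 0.19 and -0.03 with Wnt3A, so the groups overlapped, and its difference was 0.18 ± 0.16, or 0.05 without control 2. Its relative Atf5, also controlled through translation, was at 0.04 and -0.49 in the controls against 0.50 and -0.04 with Wnt3A, a difference of 0.45 ± 0.28, or 0.18 without either control 2 or Wnt3A 1. In both genes control 2 was lowest and Wnt3A 1 highest, with the other arrays between them. Ppp1r15a, the phosphatase subunit that reverses eIF2 phosphorylation, had the same order with a wider spread, at 0.31 and -0.75 in the controls against 0.83 and -0.31 with Wnt3A. Its difference of 0.48 ± 0.53 became -0.05 without control 2 and -0.09 without Wnt3A 1. Within each array number the Wnt3A value was the higher one in Atf4, Atf5 and Ppp1r15a.

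Ddit3, which encodes CHOP, the transcription factor most often used as a marker of ER stress, was not higher on average with Wnt3A. Its values were 0.00 and -0.07 in the controls against -0.26 and 0.00 with Wnt3A, a difference of -0.09 ± 0.14, and its probe sets differed by 0.09 and -0.28. Trib3, a pseudokinase induced by ATF4 and CHOP, was at -0.24 and 0.09 in the controls against 0.04 and -0.01 with Wnt3A. The Wnt3A arrays lay between the controls, and the difference was 0.09 ± 0.16. Ddit4, an inhibitor of mTORC1 also called REDD1, was separated higher by 0.27 ± 0.14, or 0.15 without Wnt3A 1. Cebpb, a bZIP factor that pairs with ATF4, differed by -0.05 ± 0.24 with overlapping groups.

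The controls lay far apart for Nupr1 and Vldlr. Nupr1, a small stress-induced nuclear protein, was at -1.22 and 0.29 in the controls against 0.73 and -0.29 with Wnt3A. Control 1 stood far below the rest, and the difference of 0.68 ± 0.62 was -0.08 without that array. Vldlr, a lipoprotein receptor that ATF4 can induce, went the other way: it was at 1.05 and 0.08 in the controls against -0.38 and -0.22 with Wnt3A. Both Wnt3A arrays lay below both controls, by 0.86 ± 0.34 log2 units (limma adjusted p = 0.70), and all 6 Vldlr probe sets were lower, by values between -1.17 and -0.45. Control 1 was highest, and without it the difference was -0.38.

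The promoters of these genes were searched for the C/EBP-ATF response element bound by ATF4, spelled TGATGNAA, on both strands of the window from 250 bases before to 50 after the gene's start in RefSeq (GRCm38.p6). RefSeq windows were matched for 32 members, and Slc7a5, Slc7a3, Atf6, Manf and Hyou1 were not analysed here. The element was found in 6 of the 32: Chac1, Nupr1, Vldlr, Trib3, Asns and Herpud1, while 4.51% of all 27025 genes with a window hold it. Genes can have several windows, and in Vldlr the element lies in the window of the downstream of its 2 starts. The stretches around it are shown for Chac1 and Nupr1, which had the largest positive differences among these genes, and for Asns, with the element in capitals, as read on the gene's strand.
Chac1 (chr2:119351029-119351076, plus strand): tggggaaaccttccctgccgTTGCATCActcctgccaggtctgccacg
Nupr1 (chr7:126625553-126625600, minus strand): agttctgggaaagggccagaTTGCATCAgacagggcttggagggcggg
Asns (chr6:7693210-7693252, minus strand): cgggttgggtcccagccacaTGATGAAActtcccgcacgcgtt
In Chac1 and Nupr1 the element lies on the opposite strand and reads TTGCATCA, and it begins 193 and 110 bases before the start. In Asns it begins 23 bases before the start. Genes with these letters differed in direction: Chac1 by 0.92, Nupr1 by 0.68, Asns by 0.26, Herpud1 by 0.19, Trib3 by 0.09 and Vldlr by -0.86 log2 units. A match is a description of the sequence and not of binding, and no match of any motif searched overlapped a match of another.

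**Figure D2:**
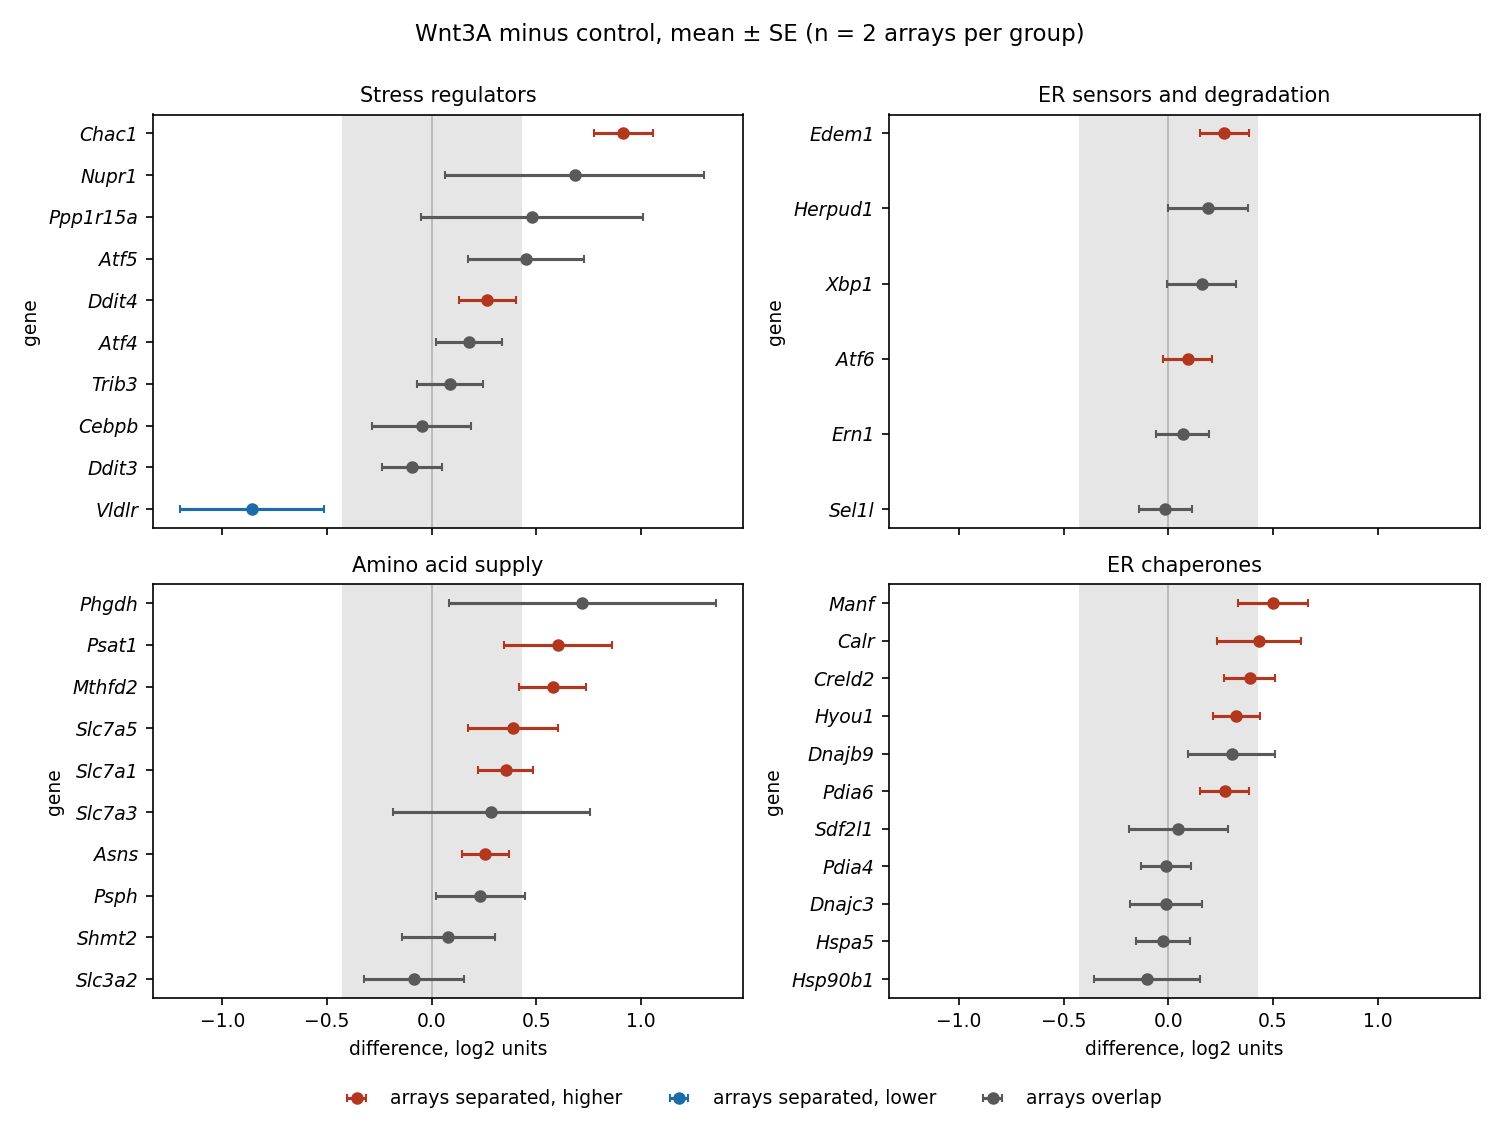
Points are the Wnt3A minus control difference of each gene in log2 units and bars its SE from limma (2 arrays per group); the grey band spans the 5th to 95th percentile over all genes, -0.42 to 0.42. The points of Chac1, Phgdh, Nupr1, Psat1, Mthfd2, Manf, Ppp1r15a, Atf5 and Calr lie beyond the band on the right and that of Vldlr beyond it on the left.

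Amino acid supply genes had a median difference of 0.32 log2 units. Of the 10, 9 had a higher mean, 5 were separated higher and 0 lower, where 17% and 17.5% of all genes were. The separated genes were Asns, Psat1, Mthfd2, Slc7a5 and Slc7a1. Control 2 was the lowest array for 9 of the 10, where it was lowest for 30.6% of all genes, and without it the median difference was 0.18, below the chaperones' 0.24. Without Wnt3A 1 it was 0.43.

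The enzymes make asparagine, serine, glycine and one-carbon units. Asns, asparagine synthetase and a textbook ATF4 target, was at -0.17 and -0.18 in the controls against 0.05 and 0.11 with Wnt3A. The groups did not overlap, and the difference was 0.26 ± 0.11, staying between 0.23 and 0.29 with any 1 array left out. The controls were nearly equal only as the mean of 2 probe sets. They were at -0.10 and -0.36 in the probe set of the top level band, which differed by 0.33. In the other, of the lowest level band, the controls were at -0.25 and -0.00054 and the difference was 0.19. Mthfd2, the mitochondrial folate enzyme, was at -0.16 and -0.50 in the controls against 0.21 and 0.28 with Wnt3A. It was 0.58 ± 0.16 higher, 1.49-fold, and both of its probe sets were higher, by 0.65 and 0.51 (limma adjusted p = 0.59).

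The serine pathway runs through Phgdh, Psat1 and Psph, and its genes did not share one pattern. Psat1, the aminotransferase, was at -0.10 and -0.80 in the controls against 0.10 and 0.20 with Wnt3A, and its separation was narrow because control 1 lay close to Wnt3A 1. The difference of 0.60 ± 0.26 was 0.25 without control 2. Phgdh, the first enzyme of the pathway, was at 0.31 and -1.07 in the controls against 0.99 and -0.31 with Wnt3A. The groups overlapped and the difference of 0.72 ± 0.64 was 0.03 without control 2 and 0.07 without Wnt3A 1. At each array number, though, Phgdh was higher with Wnt3A than in the control. The widest spread was that of 1 of its 4 probe sets, which ranged from -2.47 in control 2 to 2.20 in Wnt3A 1. Without it, a choice made after seeing the data, the mean of the other 3 was -0.06 and -0.61 in the controls against 0.58 and 0.06 with Wnt3A, separated by group, with a difference of 0.66 ± 0.28 (limma adjusted p = 0.71). Psph, the last enzyme of serine synthesis, differed by 0.23 ± 0.21, or 0.00 without Wnt3A 2, and Shmt2, which turns serine into glycine in mitochondria, by 0.08 ± 0.22, both with overlapping groups.

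**Figure D3:**
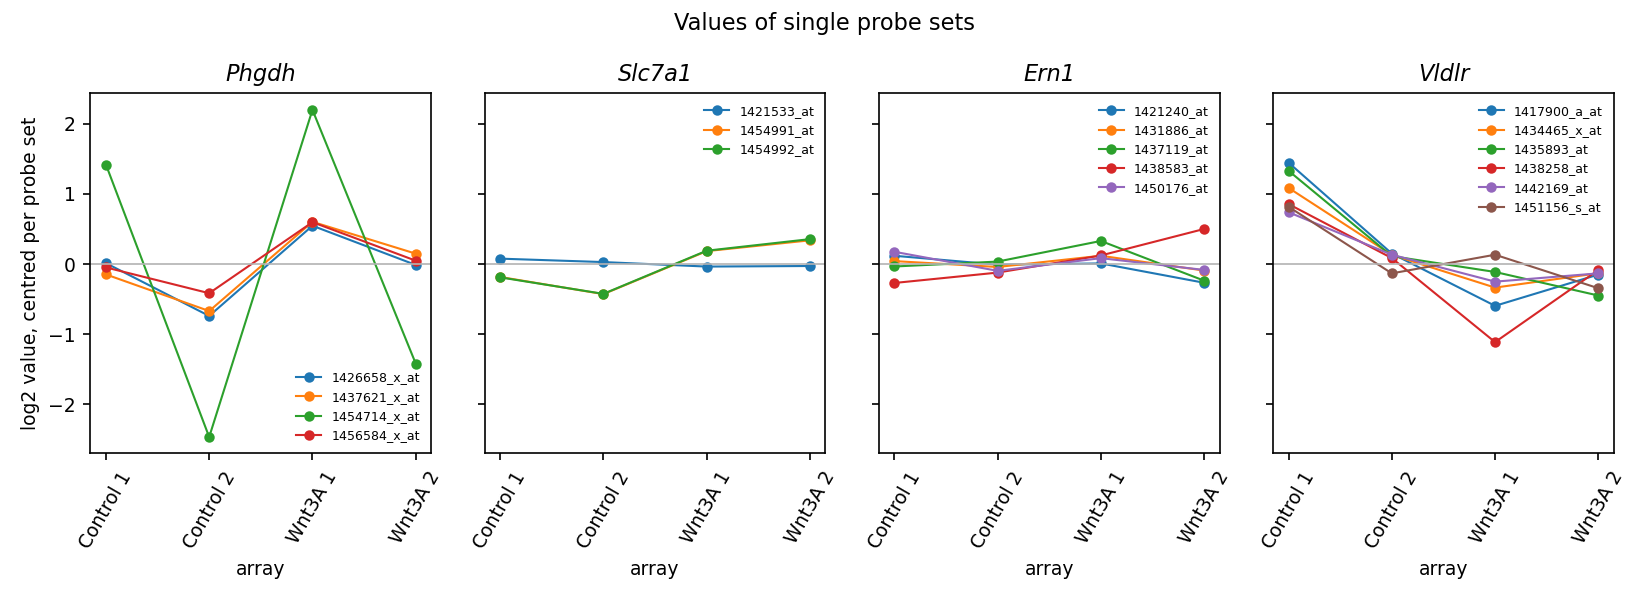
Each point is 1 probe set's log2 value in 1 array, centred on the probe set's median, and lines join the values of a probe set. For Phgdh 1 probe set swings between -2.47 and 2.20 while the other 3 stay within a narrower range, and for Slc7a1 1 of 3 stays near 0.

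The amino acid transporters differed among themselves in the same way. Slc7a1, the cationic amino acid transporter CAT1, was at -0.10 and -0.28 in the controls against 0.11 and 0.22 with Wnt3A, a difference of 0.35 ± 0.13 with separated groups. Its 3 probe sets disagreed, with 2 at 0.57 and 0.58 and 1 at -0.08. Slc7a5, the light chain of the leucine transporter LAT1, was at -0.03 and -0.58 in the controls against 0.03 and 0.15 with Wnt3A. Its difference was 0.39 ± 0.22, and 0.12 without control 2. Slc3a2, the heavy chain that carries LAT1 to the surface, was at 0.38 and -0.21 in the controls against 0.12 and -0.12 with Wnt3A, so the partner chains of 1 transporter had differences of opposite sign, though that of Slc3a2, -0.09 ± 0.24, was within its error. The cationic transporter gene Slc7a3, which had no probe set in the top level band, was at -0.62 and 0.34 in the controls against -0.34 and 0.63 with Wnt3A. Here the spread within each group exceeded the difference of 0.28 ± 0.47, though at each array number the Wnt3A value was the higher one.

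The ER sensors and degradation genes had the smallest median difference of the 4 roles. Of the 6, 5 had a higher mean, 2 were separated higher (Edem1 and Atf6) and 0 lower, where 17% and 17.5% of all genes were, and the median difference was 0.13 log2 units, or 0.01 without Wnt3A 1. Xbp1, whose RNA is spliced by IRE1, was at -0.27 and 0.09 in the controls against 0.02 and 0.11 with Wnt3A. Control 1 was lowest, the groups overlapped, and the difference of 0.16 ± 0.16 was -0.02 without control 1. These values are means of 4 probe sets, which differed by values between -0.15 and 0.31. With the probe sets of its highest level band the Xbp1 difference was 0.26. Without probe sets ending in _x_at or _s_at it was 0.033. Whether Xbp1 RNA was spliced was not read from these values. Ern1, the gene of IRE1, differed by 0.07 ± 0.13, but its 5 probe sets ranged from -0.18 to 0.51, and Atf6 differed by 0.09 ± 0.12. The separation of Atf6 was narrow, -0.05 in control 2 against -0.01 in Wnt3A 2, and with the probe sets of its highest level band the difference was -0.0049.

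Edem1, which hands misfolded glycoproteins to degradation, was at -0.16 and -0.11 in the controls against 0.18 and 0.08 with Wnt3A, separated by 0.27 ± 0.12, with both of its probe sets higher (0.26 and 0.28). Sel1l, the scaffold of the HRD1 ubiquitin ligase, differed by -0.01 ± 0.13. Herpud1, a membrane protein of the same degradation complex, was at 0.06 and -0.15 in the controls against 0.35 and -0.06 with Wnt3A, a difference of 0.19 ± 0.19 with overlapping groups. The Herpud1 promoter is shown because it holds both the ATF4 element, reading TTGCATCA, and the ER stress response element II, spelled ATTGG, any base, then CCACG, both in capitals. The second element was found in 0.0444% of all genes with a window and in no other member.
Herpud1 (chr8:94386307-94386397, plus strand): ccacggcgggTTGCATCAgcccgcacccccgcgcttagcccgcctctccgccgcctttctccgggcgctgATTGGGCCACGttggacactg

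By the mean of each gene's probe sets, the ER chaperones split into genes that were separated higher with Wnt3A and genes whose difference was smaller than its SE. Of the 11, 7 had a higher mean, and the median difference was 0.27 log2 units. The arrays were separated higher for 5 (Manf, Calr, Creld2, Hyou1 and Pdia6) and lower for 0, where 17% and 17.5% of all genes were. Except for Dnajb9, the others differed by less than their SE, among them the lumenal chaperones most used as markers of the unfolded protein response. Hspa5, which encodes BiP, was at -0.07 and 0.06 in the controls against 0.05 and -0.11 with Wnt3A. The groups overlapped within a narrow range and the difference was -0.02 ± 0.13, with probe sets between -0.20 and 0.16. The Hspa5 probe set not ending in _s_at or _x_at was separated higher. It was at -0.17 and -0.018 in the controls against 0.105 and 0.018 with Wnt3A. The side of the split on which Hspa5 falls thus depends on the probe sets used. Hsp90b1, which encodes GRP94, differed by -0.10 ± 0.26, Pdia4 by -0.01 ± 0.12 and Dnajc3, the co-chaperone p58IPK, by -0.01 ± 0.17. The 2 Pdia4 probe sets were separated in opposite directions. That of the top level band was at 0.046 and 0.037 in the controls against -0.037 and -0.17 with Wnt3A. The other was at -0.015 and -0.131 in the controls against 0.085 and 0.015 with Wnt3A. The place of Pdia4 in the split thus also depends on the probe sets used.

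Manf, a secreted ER stress protein with neurotrophic activity, was at -0.45 and -0.13 in the controls against 0.13 and 0.29 with Wnt3A, and its difference of 0.50 ± 0.17 was the largest among the chaperones (1.41-fold, limma adjusted p = 0.62). Creld2, another secreted ER stress protein, was at -0.15 and -0.28 in the controls against 0.15 and 0.21 with Wnt3A. It was higher by 0.39 ± 0.12, between 0.32 and 0.46 with any 1 array left out. Manf and Creld2 had 1 probe set each, so agreement between probe sets could not be judged for them. Hyou1, the nucleotide exchange factor GRP170, was at -0.15 and -0.17 in the controls against 0.18 and 0.14 with Wnt3A. The arrays of each group nearly coincided, and the difference was 0.33 ± 0.11, though 1 of its 3 probe sets was at -0.11 against 0.41 and 0.67 in the others.

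Calr, the lectin chaperone calreticulin, was at -0.08 and -0.13 in the controls against 0.58 and 0.08 with Wnt3A. Its 3 probe sets agreed closely, between 0.41 and 0.45, but Wnt3A 1 stood well above Wnt3A 2. The difference was 0.43 ± 0.20, and 0.18 without Wnt3A 1. Pdia6, a protein disulfide isomerase, was separated higher by 0.27 ± 0.12. Dnajb9, a co-chaperone that is a direct XBP1 target, was at -0.15 and 0.02 in the controls against 0.49 and -0.02 with Wnt3A, so its difference of 0.30 ± 0.21 came with overlapping groups and was 0.05 without Wnt3A 1. Sdf2l1, an ER protein that works with BiP, differed by 0.05 ± 0.24.

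The ER stress response element, bound by ATF6 and XBP1 together with NF-Y and spelled CCAAT, 9 bases of any kind, then CCACG, was found in 6 of the 9 chaperone genes matched and in none of the other 23 members matched, against 0.137% of all genes with a window. The unfolded protein response element TGACGTGG was found in 0 members (0.714% of all genes with a window), which says only that these letters are not in these windows. Because the members were chosen as known genes of these pathways, the shares given for all of these elements are descriptions and no test of enrichment. The stretches with the first element are shown because genes that hold it lie on both sides of the split just described. The element with its 9-base spacer is in capitals, read on the gene's strand, so that in Hsp90b1, Calr and Creld2 it appears as its reverse complement.
Hspa5 (chr2:34772005-34772063, plus strand): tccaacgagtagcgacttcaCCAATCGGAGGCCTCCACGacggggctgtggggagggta
Hsp90b1 (chr10:86705513-86705571, minus strand): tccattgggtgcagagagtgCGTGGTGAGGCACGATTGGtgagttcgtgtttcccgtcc
Dnajc3 (chr14:118937807-118937865, plus strand): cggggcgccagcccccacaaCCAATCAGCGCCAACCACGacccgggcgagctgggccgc
Calr (chr8:84847055-84847113, minus strand): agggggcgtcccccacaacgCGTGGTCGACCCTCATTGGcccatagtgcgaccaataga
Creld2 (chr15:88819500-88819558, plus strand): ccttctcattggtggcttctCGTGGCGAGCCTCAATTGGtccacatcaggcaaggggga
Pdia6 (chr12:17266471-17266529, plus strand): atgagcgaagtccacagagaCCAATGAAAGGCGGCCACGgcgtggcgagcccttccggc
Hsp90b1 holds the element at 107 and at 212 bases before its start, and the stretch at 107 is shown. Calr, Creld2 and Pdia6, with the element 162, 126 and 98 bases before the start, were separated higher by 0.43, 0.39 and 0.27 log2 units. Hspa5 (65 bases), Hsp90b1 and Dnajc3 (105 bases) differed by -0.02, -0.10 and -0.01. The element was thus present both in separated genes and in genes with overlapping groups, with Hspa5 placed by the mean of its probe sets.

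The ATF4 amino acid genes were set against the ER chaperones, since the arms of the stress response can act apart. The amino acid genes had medians of -0.06 and -0.32 in the controls and 0.08 and 0.17 in Wnt3A 1 and 2. The chaperones had medians of -0.15 and -0.13 in the controls against 0.13 and 0.08 with Wnt3A. Both lists thus had lower medians in both controls than in both Wnt3A arrays. The amino acid median minus the chaperone median was 0.08 and -0.20 in the controls against -0.05 and 0.10 with Wnt3A, so the arms did not separate from each other by group. The list medians of the difference stood 0.05 log2 units apart (0.32 against 0.27), and this gap was -0.06 when control 2 was left out, -0.05 when Wnt3A 2 was, and 0.25 when Wnt3A 1 was.

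**Figure D4:**
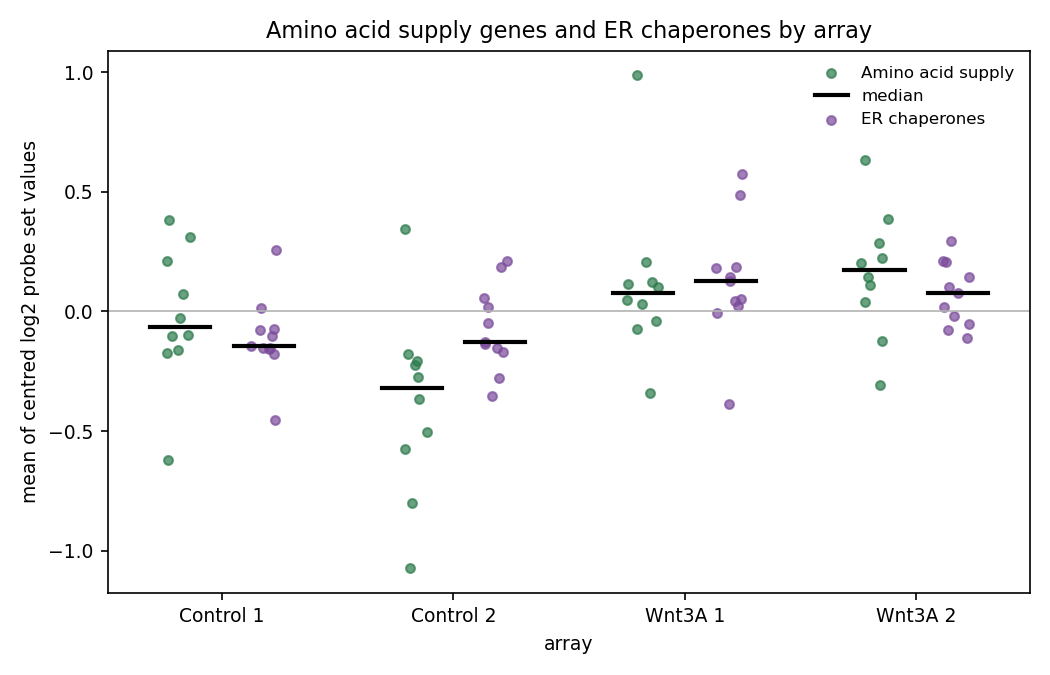
Points are genes (10 amino acid supply genes, 11 ER chaperones) in each array on the centred log2 scale and black bars the list medians. Amino acid genes are lowest in control 2, with a median of -0.32, while the chaperone medians are nearly equal in the controls, at -0.15 and -0.13.

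Other genes of these pathways were read from lists that do not include the members, with the named genes being those with the largest absolute differences among the separated ones. Cytosolic aminoacyl-tRNA synthetases, which charge transfer RNA and include many ATF4 targets, were mostly higher with Wnt3A. Of 17 measured, 15 had a higher mean, 10 were separated higher and 0 lower, where 17% and 17.5% of all genes were. The median difference was 0.24 log2 units. Control 2 was the lowest array for 12 of the 17, and without it the median was 0.13. The largest among the separated ones were Gars (0.42 ± 0.11), Nars (0.40 ± 0.13), Cars (0.38 ± 0.12) and Mars1 (0.37 ± 0.16), the enzymes for glycine, asparagine, cysteine and methionine. Further ATF4 and amino acid genes went both ways: of 22 measured, 3 were separated higher and 3 lower, shares below the 17% and 17.5% of all genes. The median difference of 0.05 was -0.02 without control 2 and -0.06 without Wnt3A 2. The glycine transporter gene Slc6a9 (0.55 ± 0.11) and the branched-chain aminotransferase gene Bcat1 (0.69 ± 0.15) were higher. Stc2, a secreted glycoprotein (-0.90 ± 0.18), and Pck2, the mitochondrial phosphoenolpyruvate carboxykinase (-0.71 ± 0.13), both known ATF4 targets, were lower. None of these passed the adjusted threshold. Bcat1 and Stc2 had no probe set in the top level band, and their probe sets ranged from 0.14 to 1.78 and from -1.41 to -0.45. The probe sets of Slc6a9 were at 0.28 and 0.82, and those of Cars at 0.05 and 0.71. Slc7a11, the cystine transporter gene, was picked after its values were seen: it was at 2.06 in Wnt3A 2 against -0.25 in Wnt3A 1 and 0.03 and -0.03 in the controls.

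Further unfolded protein response and ER genes had a median difference of 0.09 log2 units, with 8 of 23 separated higher (34.8%, against 17% of all genes) and 2 lower (17.5% of all genes). Dnajb11, a BiP co-chaperone (0.39 ± 0.12), Wfs1, an ER membrane protein (0.37 ± 0.13), and Syvn1, the ubiquitin ligase HRD1 (0.30 ± 0.15), were higher. Derl3, of the derlin family of ER degradation, was lower (-0.48 ± 0.20). Neither Wfs1 nor Derl3 had a probe set in the top level band. Of 13 stress kinase and eIF2 genes 1 was separated higher, Eif2ak3, the gene of PERK (0.23 ± 0.12), and 1 lower, the adaptor gene Nck1 (-0.22 ± 0.14). Cytosolic heat shock genes, which answer misfolding outside the ER, had 5 of 11 separated higher and 0 lower, where 17% and 17.5% of all genes were. Their median difference was 0.25. Among the separated ones, the largest differences were those of Hsph1 (0.55 ± 0.14), Hspb1 (0.52 ± 0.14), Dnajb1 (0.47 ± 0.16) and Hspa1b (0.33 ± 0.16). Hspa1a differed by 0.61 ± 0.42 with overlapping groups.

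**Figure D5:**
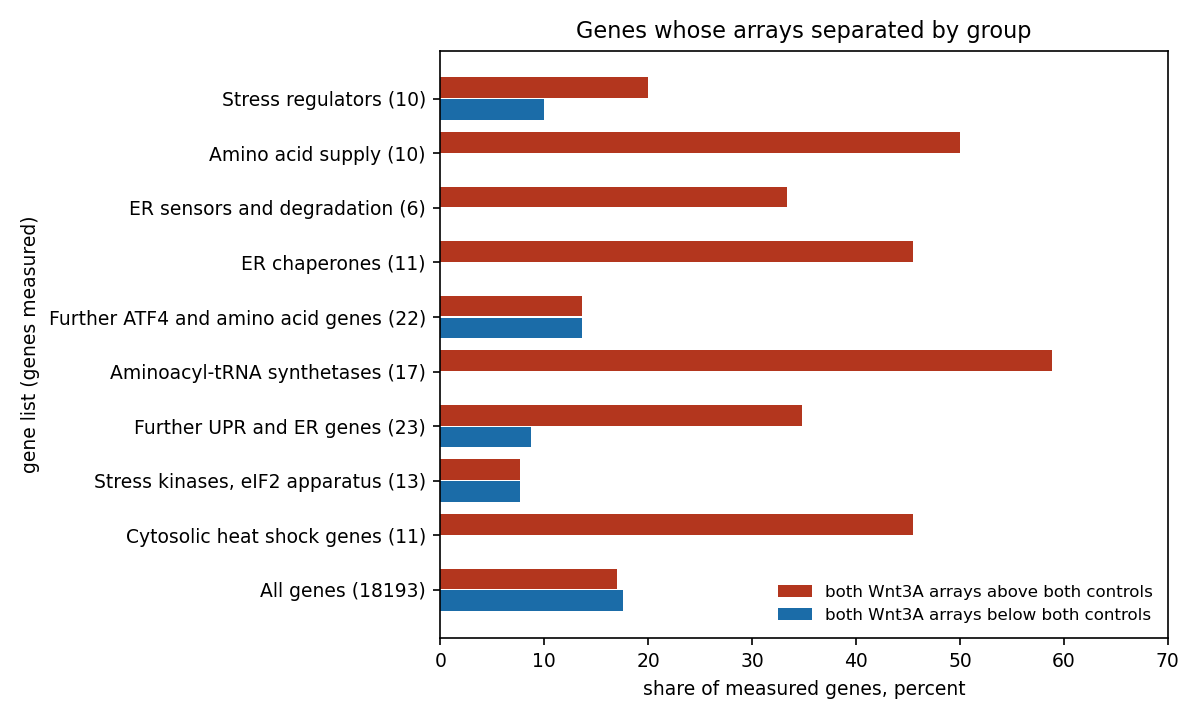
Bars give the share of measured genes of each list, in percent, whose Wnt3A arrays both lay above (red) or both below (blue) both controls, with the number of genes in brackets. Over all genes the shares are 17% and 17.5%, and amino acid supply genes, chaperones, tRNA synthetases and heat shock genes have red bars of 45.5% or more and no blue bar.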

How the data were processed

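RNA from 4 mouse mammary colony cultures (2 control, 2 Wnt3A) was hybridised to 1-colour Affymetrix mouse arrays. The deposited values are on the log2 scale, and the submitters' processing notes name RMA, with a version not given in the sources used here. Each of its 45101 rows has a median of 0 over the 4 arrays (within 5.0e-07), a centring that no source used here describes. Medians of the columns lay between -0.016 and 0.020.

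Of 45037 probe sets other than controls, 34945 had 1 gene symbol, 932 several and 9160 none. Probe sets with 1 symbol were averaged per gene, with no filter on low values. The 37 members had 87 probe sets, and all 37 Entrez identifiers matched RefSeq with 0 symbols changed. The comparison used lmFit and eBayes of limma 3.58.1 under R 4.3.3 (no covariate, two-sided, Benjamini-Hochberg over all 18193 genes, threshold 0.05). The fit had 2 residual and 2.53 prior degrees of freedom, and errors are its moderated SEs. An exact permutation test of 2 against 2 cannot go below p = 0.33. The fit was tested on simulated data with independent genes, where it recovered few changes of the size of the members' differences. Separated means that both Wnt3A values lay on one side of both control values. A level band was read from the storage precision of the values. Promoter sequences are from RefSeq. Figures used matplotlib 3.10.9.

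The members and lists were chosen with earlier results of these data known. All members may be named. Values by array are given at least for members with an unadjusted p under 0.05 and for Atf4, Asns, Trib3, Hspa5, Xbp1 and Ddit3, and up to 4 separated genes with the largest absolute difference are named in each further list. Among the listed genes outside the members, Pycr1, Gdf15, Dars, Eif2s1, Hsf1, Hsp90ab1, Hbb-b1 and Ccnb1 had no probe set with that symbol alone and were not used here. Alternatives were the probe sets of a gene's highest level band, no probe sets of the lowest band, quantile normalization, median centring, eBayes with its robust option, a block for the replicate number, leaving out each array, and testing all probe sets singly. Leaving out probe sets ending in _x_at or _s_at, and 1 Phgdh probe set, was added after seeing the data.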

Additional observations from a re-analysis of the deposited data

How the results depend on the processing

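No member passed the adjusted threshold by limma under any alternative that kept all 4 arrays. In these, 4 to 9 members had an unadjusted p under 0.05, and so had from 1270 of 16291 to 2275 of 18193 genes. Testing all probe sets singly gave no such count. With the replicate number as a block, 0 members passed, the smallest adjusted p among them was 0.22, 9 members instead of 6 and 2275 genes instead of 1340 had an unadjusted p under 0.05, and the medians and separated members were unaltered by construction. With this block the limma adjusted p was 0.23 for Phgdh instead of 0.95 and 0.29 for Ppp1r15a instead of 0.98. If the numbers mark pairs, leaving out 1 array also leaves its partner unmatched. Deviations of arrays with the same number correlated at 0.445 (Pearson, across 18193 genes, which are not independent), but with 2 pairs and no label that links them the arrays share only a number.

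Among alternatives other than leaving out an array, the sign of 33 of 37 members' differences held in all, and the exceptions were small. With the probe sets of the highest level band, Ddit3 was at 0.092 and Atf6 at -0.0049, and the chaperone median was 0.30 instead of 0.27. Without probe sets ending in _x_at or _s_at, Sel1l was at 0.0092 and Hspa5 at 0.16, and Phgdh had no value. The choice of probe sets also altered which members were separated. Separated in either direction were 15 of 37 members in the main fit (34.6% of all genes). With the highest level band 18 of 37 were (35.1% of all genes). Without probe sets ending in _x_at or _s_at 16 of 36 were (34.2% of all genes).

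Leaving out each array in turn, the median of all members lay between 0.15 and 0.29, that of the chaperones between 0.18 and 0.31, and the amino acid minus chaperone gap between -0.059 and 0.25. Separated members numbered between 23 and 29, since 3 arrays separate more easily (66.2% to 67.9% of all genes). The sign of 17 members depended on 1 array. Regulators: Ddit3 -0.23 to 0.039, Trib3 -0.081 to 0.25, Nupr1 -0.076 to 1.44, Cebpb -0.29 to 0.20, Ppp1r15a -0.09 to 1.05. Amino acid genes: Shmt2 -0.21 to 0.37, Slc3a2 -0.38 to 0.21, Slc7a3 -0.20 to 0.77. Sensors and degradation: Xbp1 -0.019 to 0.34, Ern1 -0.016 to 0.15, Herpud1 -0.016 to 0.40, Sel1l -0.10 to 0.073. Chaperones: Hspa5 -0.10 to 0.054, Hsp90b1 -0.40 to 0.20, Dnajc3 -0.21 to 0.18, Pdia4 -0.062 to 0.04, Sdf2l1 -0.26 to 0.36. The other 20 members kept their sign when an array was left out, but the values of 11 moved by over 1.5 times: Phgdh 0.029 to 1.41, Psph 0.003 to 0.46, Dnajb9 0.05 to 0.55, Atf4 0.052 to 0.30, Atf5 0.18 to 0.72, Slc7a5 0.12 to 0.66, Psat1 0.25 to 0.95, Calr 0.18 to 0.68, Ddit4 0.15 to 0.38, Atf6 0.044 to 0.14 and Vldlr -1.34 to -0.38. The cause of these shifts was not tested. With 2 arrays per group and centred values, depth of signal over background could be judged only by the level band, and 36 of 37 members had a probe set in the top band (10294 of 18193 genes did).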
